A study of Homo sapiens with 10 samples.

Results

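The HOX genes are 39 protein-coding genes for homeodomain transcription factors that lie in 4 clusters, and they were followed here in the human bladder cancer line T24 and in T24R2, a cisplatin-resistant line that was derived from it by serial exposure to the drug. Members were taken by symbol, HOXA to HOXD followed by a number, from the 61533 genes of the count tables. All 39 were found, 38 are reported, and 31 of these held enough fragments to be tested among the 16181 genes tested. The data were 10 RNA-seq libraries, 5 of T24 and 5 of T24R2, from cells taken on day 3 of culture in RPMI medium with fetal bovine serum, penicillin and streptomycin. According to the study's methods T24R2 was kept in medium with cisplatin, whereas the labels give both lines a medium with no drug, so the line and its drug exposure cannot be told apart. T24R2 is a single derived line, and nothing says that its replicates, or those of T24, came from separate cultures, so the p-values measure only the spread between these libraries, which may be technical.

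HOX proteins bind DNA through the homeodomain, often together with the TALE homeodomain proteins of the PBX, MEIS and PKNOX families, and set positional identity along the body axis. Genes of a cluster are numbered from 13 at its 5′ end to 1 at its 3′ end, and genes with the same number in different clusters are paralogs. In the embryo low-numbered genes are used early and toward the head and high-numbered genes late and toward the tail, and adult cells keep part of the code of their origin. The bladder epithelium comes from the caudal part of the gut tube, where high-numbered genes are used. Polycomb proteins hold HOX clusters silent and Trithorax proteins, KMT2A (MLL1) among them, keep them active.

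The 4 clusters lay on chromosomes 7 (HOXA), 17 (HOXB), 12 (HOXC) and 2 (HOXD) of hg38. From the RefSeq start-site table of GRCh38.p14, 20 of the 38 reported genes matched, with 26 windows of 250 bases before to 50 bases after a start. These windows held a median of 22.5 CpG dinucleotides, against 14 over all 34943 windows of the table. They stand for HOXA and HOXD, which gave 24 of the 26, with 7 from HOXA3 alone, while 9 of the 10 HOXB genes and 7 of the 9 HOXC genes had none. The HOX-PBX motif TGATNNAT, searched on both strands, was found in 3 of the 26 windows (11.5%), those of HOXD11, HOXA2 and HOXB1, against 7.42% of all windows. The 250 bases before the start are given for 4 genes on which the results turn, HOXA13 and HOXD10, which fell steeply in T24R2, and HOXD8 and HOXD4, which rose. Capitals mark CpG dinucleotides, of which the stretches hold 40 (HOXA13), 23 (HOXD10), 28 (HOXD8) and 4 (HOXD4).
HOXA13, chr7:27200092-27200341, minus strand: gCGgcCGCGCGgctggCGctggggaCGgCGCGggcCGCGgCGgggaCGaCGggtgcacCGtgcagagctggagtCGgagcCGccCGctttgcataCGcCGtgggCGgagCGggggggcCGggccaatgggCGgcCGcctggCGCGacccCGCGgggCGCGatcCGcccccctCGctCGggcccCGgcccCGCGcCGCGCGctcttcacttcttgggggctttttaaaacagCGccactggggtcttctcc
HOXD10, chr2:176116528-176116777, plus strand: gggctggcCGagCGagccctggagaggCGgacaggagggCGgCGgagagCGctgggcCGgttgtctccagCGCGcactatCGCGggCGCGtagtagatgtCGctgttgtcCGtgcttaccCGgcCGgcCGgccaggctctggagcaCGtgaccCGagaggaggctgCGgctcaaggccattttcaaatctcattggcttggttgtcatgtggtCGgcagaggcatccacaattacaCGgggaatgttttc
HOXD8, chr2:176129455-176129704, plus strand: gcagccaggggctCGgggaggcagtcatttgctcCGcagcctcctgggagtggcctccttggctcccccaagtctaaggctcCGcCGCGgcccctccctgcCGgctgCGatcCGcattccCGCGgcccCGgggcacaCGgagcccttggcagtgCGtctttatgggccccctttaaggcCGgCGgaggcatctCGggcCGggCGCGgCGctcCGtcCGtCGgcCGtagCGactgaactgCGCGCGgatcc
HOXD4, chr2:176151300-176151549, plus strand: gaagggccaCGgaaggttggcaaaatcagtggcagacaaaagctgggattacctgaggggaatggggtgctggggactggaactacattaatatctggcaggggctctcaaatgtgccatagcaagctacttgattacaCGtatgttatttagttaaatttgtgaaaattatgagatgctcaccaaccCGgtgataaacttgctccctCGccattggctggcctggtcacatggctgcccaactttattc
Among these 4 genes both the CpG-poor HOXD4 and the CpG-rich HOXD8 rose.

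Each library held 9257843 to 10247941 counted fragments in T24 and 9591379 to 10840954 in T24R2, of which 5527 to 6238 and 3928 to 4532 fell in the reported HOX genes. The keratins KRT7, KRT8 and KRT18 were high in both lines (means of 2242, 1541 and 1112 CPM, TMM-scaled counts per 1000000 fragments, in T24 and 1370, 1009 and 691 in T24R2). The keratin KRT19, by contrast, fell from 267 CPM in T24 to 0.0887 CPM in T24R2, and GATA3 from 22.1 to 0.214 CPM. The uroplakins UPK1B and UPK3A and the keratin KRT20 were at or under 3 counts in every library. Of 15 urothelial markers 8 were tested and all 8 were lower in T24R2, beside 26.5% of all tested genes. KRT19 and GATA3 held enough fragments to pass the filter on low counts only in T24, so their fall follows in part from the filter. The urothelial list summed to 5006 to 5740 CPM in T24 libraries and 3029 to 3233 CPM in T24R2 libraries. Of the other cell types' markers, the leukocyte list summed to 0.229 to 0.864 CPM in T24 and 0.295 to 2.69 CPM in T24R2, with CD3E at the floor of 3 counts, and the fibroblast list to 9.61 to 11.9 CPM in T24 and 0.954 to 2.02 CPM in T24R2, with COL1A2, DCN and LUM at the floor. The endothelial list summed to 225 to 278 CPM in T24 and 1.6 to 2.5 CPM in T24R2, nearly all of it CDH5 (239 and 0.559 CPM). The urothelial, fibroblast and endothelial lists thus differed with the line, and their part in the HOX results was not tested. In bulk RNA fewer cells that use a gene and less RNA per cell cannot be told apart.

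The lines differed in 23 of the 31 tested HOX genes by edgeR's quasi-likelihood test (Benjamini-Hochberg adjusted p under 0.05 and a log2 fold change beyond 0.5 in size). This was 74.2% of the tested members, beside 51.4% of all tested genes. Higher in T24R2 were 9 (29%, against 24.9% of all tested genes) and lower were 14 (45.2%, against 26.5%). Of the 31, 22 had libraries of the lines that did not overlap (61.2% of all tested genes). The median log2 fold change was -0.13 over the tested members and 0.01 over all tested genes. The direction went by cluster: HOXA held 5 and HOXB 6 lower genes and neither held a higher one, HOXC held 5 higher and no lower genes, and HOXD held both. Of the tested members 7 passed the filter on low counts through a single line, HOXA13, HOXA4, HOXA2, HOXD11 and HOXD10 through T24 and HOXC13 and HOXC10 through T24R2, so that a difference in these 7 follows in part from the filter.

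**Figure D1:**
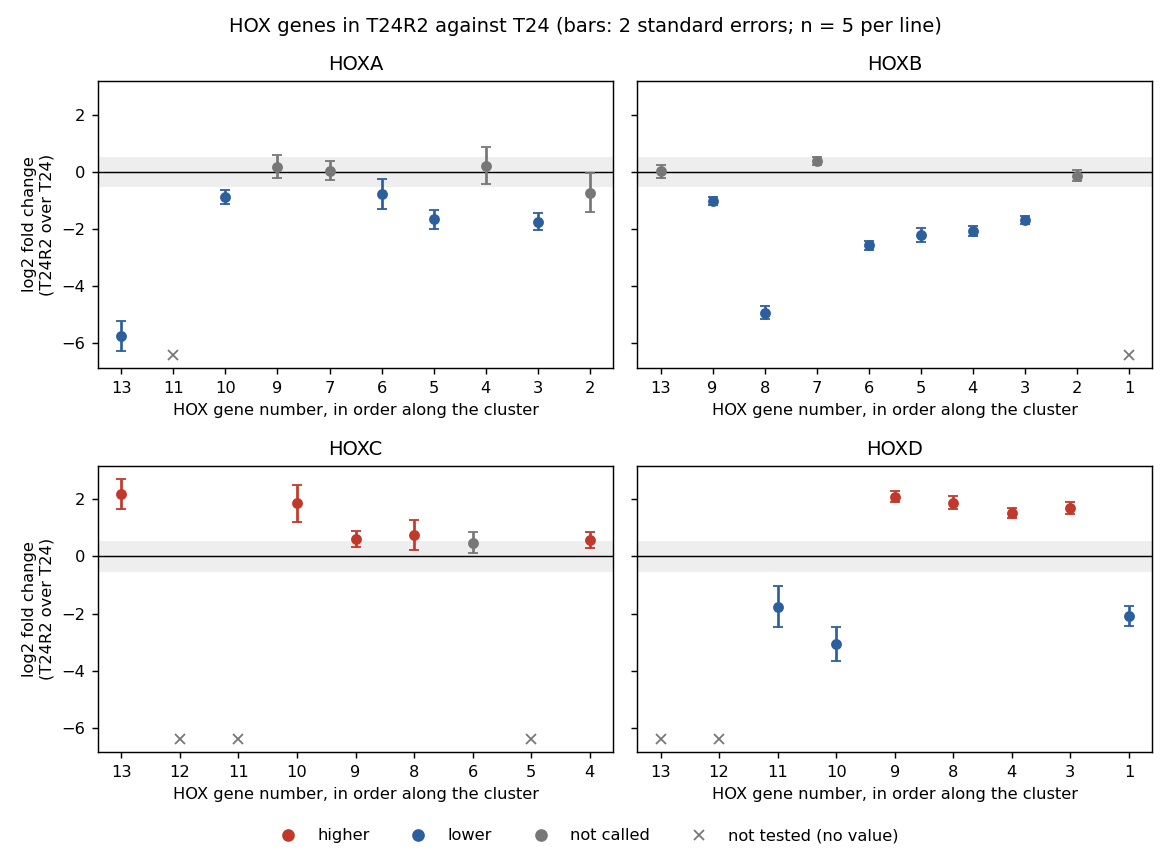
Log2 fold change of T24R2 over T24 (vertical axis) for each HOX gene in its order along the cluster (horizontal axis, gene number), with bars of 2 standard errors and 5 libraries per line; red, higher; blue, lower; grey, not called; a cross at the foot of a panel marks a gene that was not tested, and the grey band spans -0.5 to 0.5. HOXA and HOXB points lie mostly below zero down to -5.74, HOXC points above it, and HOXD3, HOXD4, HOXD8 and HOXD9 lie between 1.51 and 2.09 with HOXD1, HOXD10 and HOXD11 below zero.

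Genes of the HOXA cluster (10 reported, 9 tested) fell in 5 cases, with a median log2 fold change of -0.77 over the tested members, and none rose. The share called was 55.6%, near the 51.4% of all tested genes, of which 26.5% were lower. The gene at the 5′ end, HOXA13 (chr7:27193503-27200091, minus strand), which patterns the distal limb and the hindgut and urogenital region, had 18.1, 16.1, 18.4, 18.9 and 15.6 CPM in the T24 libraries. It had 0.184, 0.0867, 0, 0.802 and 0.492 CPM in the T24R2 libraries, so that the groups lay far apart. The T24R2 mean came to 1.8% of the T24 mean (808 against 17 counts in all), a log2 fold change of -5.74 (SE 0.26, edgeR adjusted p = 3.6e-22), and -6.45 without T24R2 replicate 4. HOXA13 passed the filter on low counts only through T24, so its fall follows in part from the filter. Its neighbour HOXA11 held 6 counts in T24 and none in T24R2 and was not tested.

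In the middle and at the 3′ end of HOXA the changes were smaller and not all in line. HOXA10, used in the development of the reproductive tract, fell from 13.2 ± 1.25 to 7.14 ± 0.783 CPM (SD, n = 5 per line; log2 fold change -0.88, SE 0.13, edgeR adjusted p = 9.1e-08). HOXA5, which acts in lung development, fell from 11.4 ± 2.26 to 3.59 ± 0.642 CPM (-1.66, SE 0.17, edgeR adjusted p = 1.4e-11). HOXA3, which acts in the pharyngeal arches, fell from 16.3 ± 2 to 4.84 ± 1.48 CPM (-1.75, SE 0.15, edgeR adjusted p = 2.6e-13). The libraries of the lines did not overlap for these 3 genes. HOXA6 also fell, to 58.6% of T24 (log2 fold change -0.77, SE 0.26, edgeR adjusted p = 0.00798), but its libraries overlapped, at 2.63 to 4.42 CPM in T24 and 1.08 to 3.12 CPM in T24R2. The other tested members did not pass. HOXA9 had a log2 fold change of 0.18 (edgeR adjusted p = 0.412) and HOXA2 one of -0.73 (0.0513), with limma-voom giving -0.92 and a call. HOXA2 passed the filter on low counts only through T24. HOXA7 and HOXA4 stood at 0.04 and 0.22, and leaving out single libraries turned the sign of both. The exons of HOXA7 and HOXA6 lie under exons of genes on the other strand over 62.5% and 39.3% of their length. For HOXA3, HOXA4, HOXA10 and HOXA9 this share was 17.3%, 16.5%, 16.4% and 13.9%. Fragments of the strands may not be separable in these counts.

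HOXB had the highest summed level of the clusters in T24. Of its 10 genes 9 were tested, 6 fell and none rose, with a median log2 fold change of -1.67. The share called was 66.7%, all lower, beside 51.4% called and 26.5% lower over all tested genes. HOXB8 (chr17:48611377-48615292, minus strand), a gene also known from myeloid leukaemia, had 71.5, 64.3, 67.4, 67.5 and 64.0 CPM in T24 and 1.65, 1.91, 1.92, 2.58 and 2.95 CPM in T24R2. Every T24R2 library was thus far below every T24 library, with a mean of 3.29% of T24 (log2 fold change -4.92, SE 0.11, edgeR adjusted p = 1e-32). HOXB6 (chr17:48595751-48604992), the HOX gene with the highest level per kilobase of exon in T24, had 90.3, 84.8, 84.9, 92.3 and 79.2 CPM there and 12.2, 12.9, 17.6, 15.3 and 14.7 CPM in T24R2. It fell to 16.8% (-2.57, SE 0.08, edgeR adjusted p = 4.5e-28).

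The genes from HOXB5 to HOXB3 fell less than HOXB6, with HOXB5 and HOXB4 alike within their standard errors. HOXB5 fell from 28 ± 3.63 to 6.12 ± 0.996 CPM (log2 fold change -2.20, SE 0.12, n = 5 per line). HOXB4, a gene known for promoting self-renewal of blood stem cells, fell from 47.4 ± 4.29 to 11.3 ± 1.02 CPM (-2.07, SE 0.09). HOXB3 fell from 95.8 ± 8.73 to 30.1 ± 2.41 CPM (-1.67, SE 0.07). The edgeR adjusted p was 1.4e-19, 5.3e-23 and 9.2e-24 for these 3 genes, and no library of T24R2 reached any of T24. HOXB6 shares 16.6% of its exon bases with HOXB3 on the same strand, and fragments there are not counted for either gene. HOXB6 also lies under HOXB-AS3 on the other strand over 16.3% of its exon bases, so its reads may be mixed with those of HOXB-AS3.

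The other HOXB genes did not all fall. HOXB7 (chr17:48607232-48633572), next to HOXB8, had 30.8, 34.0, 31.0, 29.8 and 29.1 CPM in T24 and 39.2, 41.8, 39.4, 38.0 and 41.9 CPM in T24R2. Every T24R2 library was above every T24 library, but the log2 fold change of 0.37 (SE 0.07, edgeR adjusted p = 1.4e-05) was under the fold minimum, and it passed only with library-size scaling (0.54). HOXB13, a gene of the prostate and the hindgut, stood at 15.8 ± 2.15 and 16.0 ± 1.37 CPM (log2 fold change 0.02, SE 0.11, edgeR adjusted p = 0.864), with a sign that 2 of the left-out libraries turned. HOXB2 stood at 28 ± 2.17 and 25.6 ± 4.19 CPM (-0.13, edgeR adjusted p = 0.222), and at 0.04 with library-size scaling. HOXB9 fell to 49.6% (65.5 ± 3.94 to 32.4 ± 3.28 CPM, log2 fold change -1.01, SE 0.07, edgeR adjusted p = 2.7e-16). HOXB1 held no counts in any library.

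The contrast between adjacent genes is given within each library as the log2 ratio of their counts with 0.5 added, for 5 pairs that were chosen after the changes of their genes were seen, so that the ratios are a description with no test. HOXB7 had fewer counts than HOXB8 in every T24 library (log2 ratio -1.11 ± 0.11) and more in every T24R2 library (4.19 ± 0.33), a difference of 5.30. The ratio of HOXB7 to HOXB6 moved from -1.48 ± 0.12 to 1.47 ± 0.23, and that of HOXB9 to HOXB8 from -0.03 ± 0.10 to 3.88 ± 0.41. The genes on either side of HOXB8 thus kept far more of their level than HOXB8. In HOXD the ratio of HOXD3 to HOXD1 moved from -0.37 ± 0.19 to 3.40 ± 0.37. HOXB13 to HOXB9, the last pair, moved from -2.06 ± 0.20 to -1.01 ± 0.11.

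**Figure D2:**
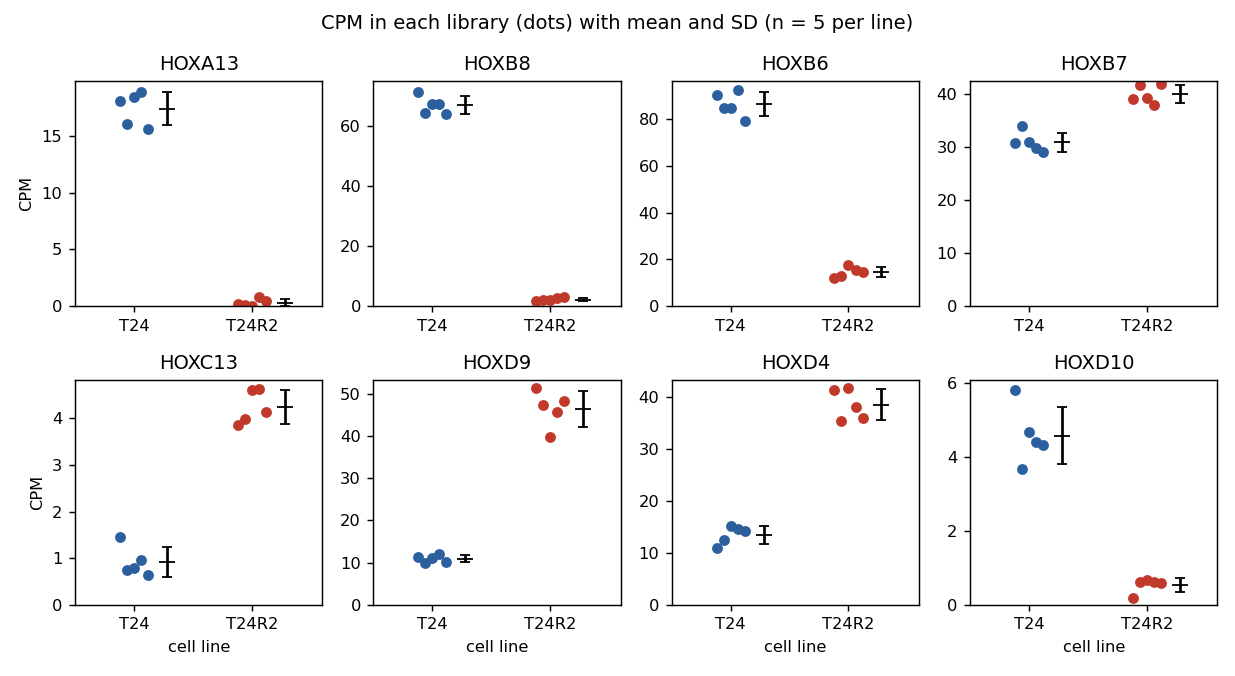
CPM (vertical axis, from 0) in each T24 and T24R2 library (dots) of 8 HOX genes, with mean and SD beside them (n = 5 per line). HOXA13, HOXB8, HOXB6 and HOXD10 drop in T24R2, to 14.5 CPM or less on average, HOXC13, HOXD9 and HOXD4 rise above every T24 library, and HOXB7 lies slightly but fully above T24.

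In the HOXC cluster (9 members, 6 tested) 5 genes rose and none fell, from low levels. The share called was 83.3%, all higher, beside 51.4% called and 24.9% higher over all tested genes. HOXC13 (chr12:53938831-53946544, plus strand), known for its part in hair and nail formation, had 1.45, 0.736, 0.8, 0.968 and 0.648 CPM in T24 and 3.85, 3.99, 4.61, 4.63 and 4.13 CPM in T24R2. Every T24R2 library was above every T24 library (log2 fold change 2.18, SE 0.27, edgeR adjusted p = 2.3e-09). HOXC10 rose from 0.602 ± 0.117 to 2.21 ± 0.286 CPM (1.85, SE 0.33, edgeR adjusted p = 3.3e-06). The genes toward the 3′ end rose less. HOXC13 and HOXC10 passed the filter on low counts only through T24R2, so this order follows in part from the filter. HOXC9 went from 6.80 ± 0.833 to 10.4 ± 0.560 CPM (0.61, SE 0.14, edgeR adjusted p = 0.0001) and HOXC4 from 7.02 ± 1.38 to 10.6 ± 0.776 CPM (0.59, SE 0.14, edgeR adjusted p = 0.0003). HOXC8 went from 2.03 ± 0.503 to 3.45 ± 1.21 CPM (0.76, SE 0.26, edgeR adjusted p = 0.00925) with overlapping libraries, and lost its call without T24R2 replicate 5 (0.55, adjusted p = 0.0695). HOXC6 stood at 5.05 ± 1.73 and 7.06 ± 0.887 CPM, a log2 fold change of 0.48 (edgeR adjusted p = 0.0174) just under the fold minimum. On the same strand HOXC4 shares 17.5% and HOXC6 16.1% of exon bases with other genes, each other among them. Fragments there are not counted for either gene. HOXC12 and HOXC11 held no counts, and HOXC5 held 8 in T24 and 11 in T24R2.

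HOXD was the cluster in which neighbours were called in opposite directions. All 7 of its tested genes changed, 4 up and 3 down, beside 51.4% of all tested genes called. All 7 had libraries that did not overlap, beside 61.2% of all tested genes. HOXD10 and HOXD11 passed the filter on low counts only through T24, so their fall follows in part from the filter. The 4 that rose are next to each other in the middle of the cluster. HOXD9 (chr2:176122719-176124937, plus strand) had 11.4, 9.89, 11.0, 12 and 10.2 CPM in T24 and 51.3, 47.3, 39.8, 45.6 and 48.4 CPM in T24R2 (log2 fold change 2.09, SE 0.09, edgeR adjusted p = 6.5e-23). HOXD8 had 8.61, 11.4, 7.43, 8.39 and 10.7 CPM and 32.1, 31.9, 40.7, 32.5 and 34.6 CPM (1.88, SE 0.11, edgeR adjusted p = 5.9e-19). For both genes the lowest T24R2 library was above the highest T24 library. HOXD4 (chr2:176151550-176153226) had 11.0, 12.5, 15.1, 14.6 and 14.3 CPM and 41.3, 35.3, 41.8, 38.0 and 36.0 CPM (1.51, SE 0.09, edgeR adjusted p = 5.3e-18). HOXD3 had 9.86, 9.68, 7.43, 10.1 and 9.61 CPM and 30.9, 35.0, 30.7, 29.8 and 24.8 CPM (1.69, SE 0.11, edgeR adjusted p = 1.5e-17). All 4 genes stood at 285% to 427% of T24. The antisense gene HOXD-AS2 overlaps 24.4% of the exon bases of HOXD8, and with all its counts taken off, the log2 ratio of HOXD8 was 1.36. HOXD3 lies under HOXD-AS2, HAGLR and a further gene of the other strand over 14.1% of its exon bases. No such ratio is given for HOXD3, and its reads may be mixed with theirs.

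On both sides of that block the HOXD genes fell. HOXD10 (chr2:176108790-176119937), which acts in limb and hindlimb nerve development, had 5.81, 3.68, 4.68, 4.41 and 4.32 CPM in T24 and 0.184, 0.607, 0.672, 0.624 and 0.59 CPM in T24R2. It dropped to 11.7% (log2 fold change -3.07, SE 0.30, edgeR adjusted p = 8.9e-12). HOXD11 dropped from 2.34 ± 0.854 to 0.678 ± 0.352 CPM (-1.76, SE 0.36, edgeR adjusted p = 3e-05), and shares 21.4% of its exon bases with HOXD10 on the same strand. At the 3′ end HOXD1 had 14.2, 14, 9.83, 12.6 and 10.2 CPM in T24 and 2.75, 2.25, 4.13, 2.85 and 2.36 CPM in T24R2 (-2.08, SE 0.17, edgeR adjusted p = 6.8e-14). The exons of HOXD1 lie under those of genes on the other strand over 60.1% of their length, so its reads may be mixed with theirs. HOXD12 held 1 count in T24 and 19 in T24R2, a ratio of 16.3 with a 95% exact interval of 2.59 to 676 for counting error only. HOXD13 held 0 and 4 counts, and neither gene was tested.

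Summed by cluster, as FPKM (CPM per kilobase of exon, so that genes can be compared), HOXB made up most of the HOX sum in T24, and HOXD and HOXB made up most of it in T24R2. HOXB went from 175 ± 5.35 to 74.1 ± 2.41 FPKM and from 71.9 ± 0.587% to 40 ± 0.883% of the HOX sum (SD, n = 5). HOXD went from 33.2 ± 0.876 to 82.2 ± 3.28 FPKM, and from 13.6 ± 0.505% to 44.4 ± 0.602% of the sum. HOXA went from 25.6 ± 1.58 to 12.4 ± 1.34 FPKM and HOXC from 9.66 ± 1.16 to 16.4 ± 0.769 FPKM. The sum over the reported HOX genes was 243 ± 6.41 FPKM in T24 and 185 ± 6.51 FPKM in T24R2. In T24 HOXB was the largest cluster in every library and in T24R2 HOXD was. No test was made on these sums.

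**Figure D3:**
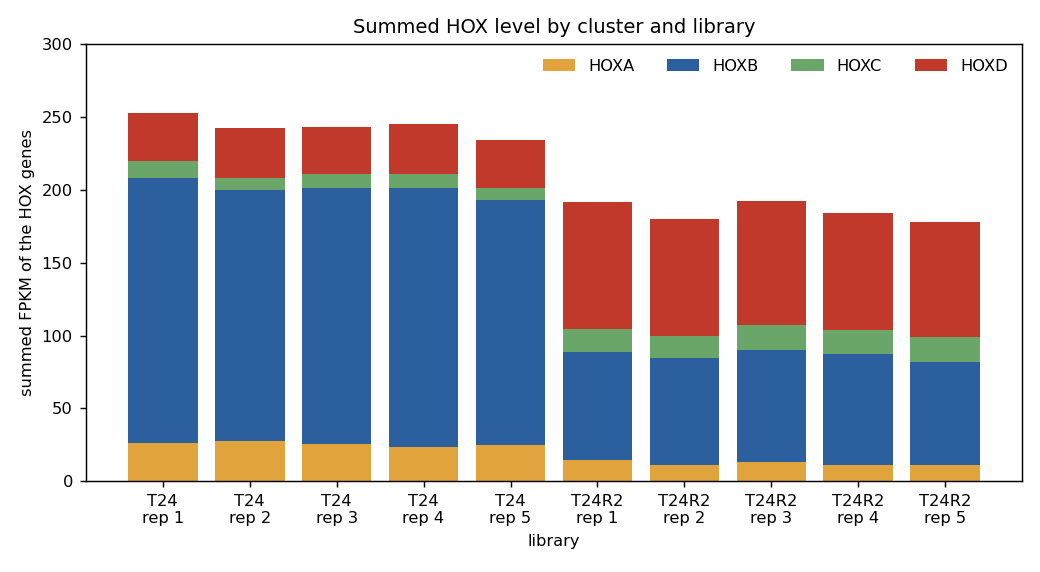
Summed FPKM of the HOX genes (vertical axis) in each of the 10 libraries, stacked by cluster. The blue HOXB part shrinks from 175 to 74.1 FPKM on average between T24 and T24R2 and the red HOXD part grows from 33.2 to 82.2 FPKM.

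The order of the genes by level changed with it. In T24 the highest levels were HOXB6 (33.1 ± 1.99 FPKM), HOXB8 (27.9 ± 1.26), HOXB9 (25.3 ± 1.52), HOXB4 (23.7 ± 2.14) and HOXB7 (20.3 ± 1.24). HOXB9 and HOXB4 differed by less than their spread. In T24R2 the order was HOXD4 (33.9 ± 2.64 FPKM), HOXB7 (26.4 ± 1.12), HOXD9 (24.8 ± 2.27), HOXD8 (13.1 ± 1.41) and HOXB9 (12.5 ± 1.27), in which HOXB7 and HOXD9 and also HOXD8 and HOXB9 lay within their spread. HOXB8 was at 0.916 ± 0.225 FPKM there. Above 1 FPKM on average were 26 members in T24 and 24 in T24R2.

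**Figure D4:**
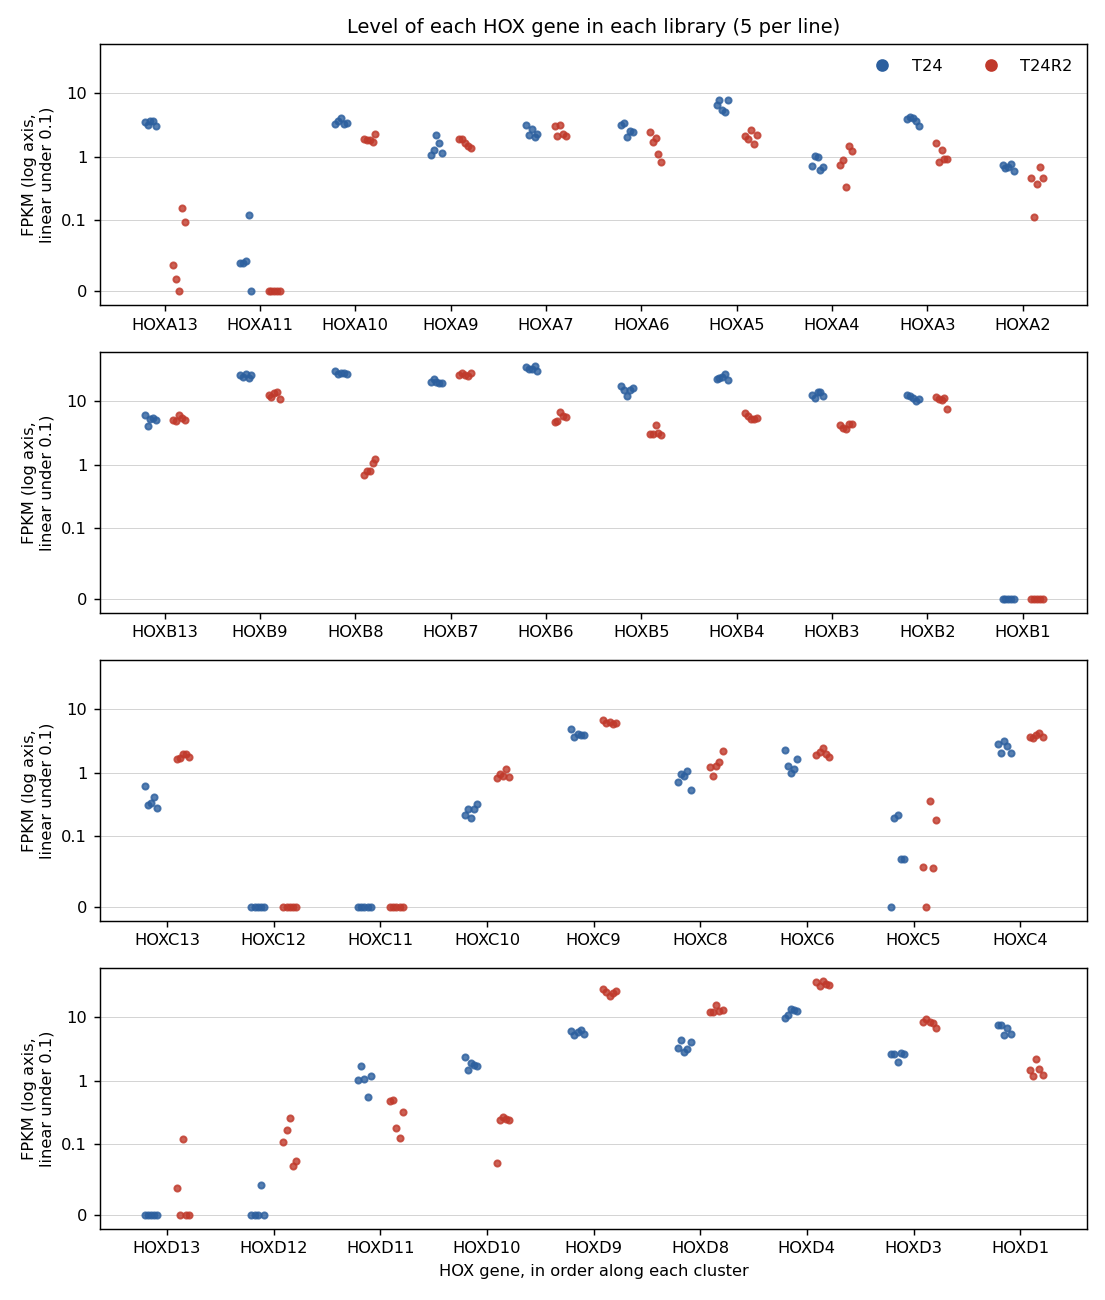
FPKM of each HOX gene in each library (vertical axis, logarithmic and linear under 0.1; blue T24, red T24R2, 5 libraries each), in order along the 4 clusters. Red dots lie under blue ones for HOXA13, most of HOXB and HOXD10, and above them for HOXD9 to HOXD3 and most HOXC genes, while HOXB1, HOXC11 and HOXC12 are at 0.

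Paralogs with the same number moved in different directions in 6 groups, numbers 3, 4, 8, 9, 10 and 13. Group 9 held HOXB9 down (-1.01), HOXC9 and HOXD9 up (0.61 and 2.09) and HOXA9 not called. In group 8 HOXB8 fell while HOXC8 and HOXD8 rose. In group 4 HOXB4 fell while HOXC4 and HOXD4 rose, and in group 3 HOXA3 and HOXB3 fell while HOXD3 rose. Group 13 held HOXA13 down, HOXC13 up and HOXB13 near 0, and group 10 held HOXA10 and HOXD10 down and HOXC10 up. HOXA13 and HOXD10 passed the filter on low counts only through T24, and HOXC13 and HOXC10 only through T24R2. The opposite directions in groups 10 and 13 thus follow in part from the filter, as does the fall of HOXD11 in group 11. The tested members of groups 5 and 11 fell, in group 6 HOXA6 and HOXB6 fell and HOXC6 was not called, and in groups 2 and 7 none was called. Of the summed levels of these 6 mixed groups, those of groups 4 and 9 were 38.9 ± 3.28 and 44.3 ± 2.64 FPKM for group 4 and 36.7 ± 1.92 and 45.3 ± 2.15 FPKM for group 9 (SD, n = 5), with libraries that overlapped for group 4 and were higher in T24R2 for group 9. Those of groups 3 (19.2 ± 1.12 and 13.4 ± 0.888 FPKM), 8 (32.2 ± 0.944 and 15.4 ± 1.61) and 10 (5.65 ± 0.352 and 3.07 ± 0.207) were lower in every T24R2 library, and those of group 13 overlapped (9.02 ± 1.03 and 7.17 ± 0.621). Groups 5 and 6 were lower in every T24R2 library too, at 21.8 ± 2.8 and 5.51 ± 0.969 FPKM for group 5 and 37.3 ± 2.36 and 9.22 ± 1.1 FPKM for group 6.

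The clusters also hold noncoding genes, most of them antisense to HOX genes. Of 18 on the list, 14 were tested and 11 called (78.6%, beside 51.4% of all tested genes), 3 higher (21.4%, against 24.9%) and 8 lower (57.1%, against 26.5%). HOTTIP and HOXB-AS2 passed the filter on low counts through T24 and HOXC-AS1 through T24R2. Their differences thus follow in part from the filter. HOTTIP, transcribed from the 5′ tip of HOXA beside HOXA13 and known to keep the 5′ HOXA genes active, held 296 counts in T24 and 2 in T24R2, a ratio of 173 with a 95% exact interval of 47.4 to 1434 for counting error only. Its level was 3.94, 8.52, 6.86, 6.35 and 6.26 CPM in the T24 libraries and 0.184, 0, 0, 0 and 0 in those of T24R2. HOTTIP and HOXA13 were thus both near 0 in T24R2. HOTAIRM1 (-1.25), HOXA-AS2 (-1.49) and HOXA10-AS (-0.67) in HOXA fell, and HOXA-AS3 had a log2 fold change of -0.21 without a call. In HOXB the antisense genes HOXB-AS3 (80.9 ± 6.21 to 15.5 ± 1.28 CPM, -2.38), HOXB-AS2 (-2.0) and HOXB-AS1 (-0.84) fell, and HOXB-AS4 (0.22) was not called. HOXB3, HOXB5 and HOXB6, which HOXB-AS3 overlaps, fell too, but HOXB2, which HOXB-AS1 overlaps, was not called (-0.13). Exons of the other strand lie over 30.1% of HOXB-AS3, 29.6% of HOXB-AS1, 62.3% of HOXA10-AS and 39.3% of HOXA-AS3. Their fragments may thus belong in part to the HOX genes they overlap.

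In HOXC the antisense gene HOXC-AS1 rose (1.11), HOXC-AS2 (0.57) was not called, and HOXC13-AS and HOXC-AS3 were too low to test. HOTAIR, the HOXC transcript known for recruiting silencing complexes to HOXD in other cells, held 0 counts in T24 and 1 in T24R2 and was not tested. In HOXD the antisense genes HOXD-AS2 (4.49 ± 0.880 to 22.0 ± 2.83 CPM, 2.29) and HAGLR (43.5 ± 3.37 to 71.0 ± 4.24 CPM, 0.71) rose, while HAGLROS fell (-1.37). Exons of the other strand lie over 49.3% of the exon bases of HOXD-AS2 (those of HOXD8 and HOXD3), 13.8% of HAGLR and 37.6% of HAGLROS (those of HAGLR), so their fragments may belong in part to these partners. Without genes overlapped in this way 4 noncoding genes were called in place of 11. Called genes on this list had edgeR adjusted p values of 0.00385 or less. HOXA11-AS held counts in T24 libraries only and was not tested.

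The TALE cofactors that bind DNA with HOX proteins changed in 3 of 7 tested genes of the 8 reported (42.9%, below the 51.4% of all tested genes). MEIS3 had 10.9, 11.4, 7.77, 10.2 and 7.56 CPM in T24 and 38.1, 32.3, 31.9, 28.6 and 35.8 CPM in T24R2, with no overlap. It rose from 9.56 ± 1.78 to 33.3 ± 3.68 CPM (log2 fold change 1.80, SE 0.11, edgeR adjusted p = 4.9e-18). MEIS2 fell from 38.7 ± 1.27 to 18.1 ± 0.767 CPM (-1.09, edgeR adjusted p = 8.7e-16) and PBX3 from 25.3 ± 0.919 to 14.8 ± 2.23 CPM (-0.78, edgeR adjusted p = 4.4e-09). Not called were PBX2 (0.10), MEIS1 (0.32), PKNOX1 (0.39) and PBX4 (-0.52), and PKNOX2 was too low to test.

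**Figure D5:**
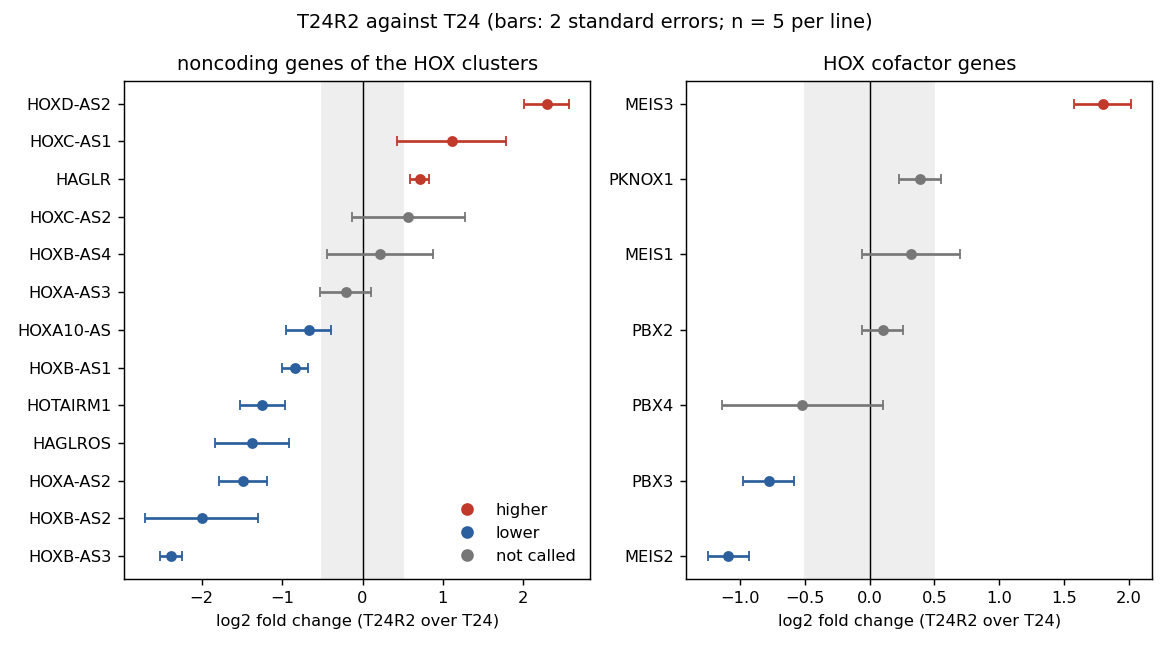
Log2 fold change of T24R2 over T24 (horizontal axis) with bars of 2 standard errors (5 libraries per line) for 13 tested noncoding genes of the HOX clusters (left; HOTTIP, with 2 counts in T24R2, has no point) and 7 cofactor genes (right). HOXD-AS2 at 2.29 and MEIS3 at 1.80 stand at the high end, HOXB-AS3 at -2.38 and MEIS2 at -1.09 at the low end.

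Of 29 genes known to set or keep HOX expression, 24 were tested and 8 called (33.3%, below the 51.4% of all tested genes), 4 in each direction. KMT2A, the Trithorax methyltransferase that keeps HOX genes active, fell by 0.53 on the log2 scale (153 ± 14.7 to 106 ± 4.60 CPM). The H3K27 demethylase KDM6B fell (-0.66) and its relative KDM6A rose (0.69). The Polycomb gene BMI1 rose (0.59), while EZH2 (0.34), EED (-0.31) and SUZ12 (0.06), the core of Polycomb complex PRC2, were not called. Among receptors for retinoic acid, which induces HOX genes in the embryo, RARA (59.0 ± 4.64 to 26.5 ± 1.98 CPM, -1.15) and RARG (-0.58) fell and RARB rose (0.91). MLLT3, a fusion partner of KMT2A in leukaemia, rose (0.58). The caudal-related activators CDX1, CDX2 and CDX4 had no counts in any library. The edgeR adjusted p of the 8 called genes was 0.00141 or less.

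The nearest 2 tested genes beyond each end of the clusters were read next, at 10001 to 911011 bases from the nearest HOX gene. Beside HOXD, LNPK (28.5 to 103 CPM, log2 fold change 1.85, SE 0.06) and ATP5MC3 (1.36) at the 5′ end and MTX2 (0.99) at the 3′ end rose, at distances of 89882, 911011 and 78488 bases. The nearest of all 16, ENSG00000218175 at 10001 bases from the 3′ end of HOXD, was not called (0.20, SE 0.17, edgeR adjusted p = 0.295). Beside HOXB, SNX11 (1.32) and CBX1 (0.87), at 404925 and 427048 bases from the 3′ end, rose although 6 HOXB genes fell, and CALCOCO2 (0.15) and SUMO2P17 (0.61) at the 5′ end were not called. Beside HOXA, SKAP2 (-0.60) and EIF4HP1 (-0.83) fell and HIBADH (0.06) and SNX10-AS1 (0.46) were not called. Beside HOXC, SMUG1 fell (-0.53), and CALCOCO1 (0.11), ATP5MC2 (-0.08) and LINC02381 (0.41) were not called. In all, 5 of these 16 genes rose and 3 fell by edgeR's test, and the 50% called was near the 51.4% of all tested genes. The homeobox genes EVX1 and EVX2, at the 5′ ends of HOXA and HOXD, held 3 and 2 counts and 0 and 5 counts in T24 and T24R2. The relation of these neighbours' changes to those of the HOX genes was not tested.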

How the data were processed

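RNA-seq libraries of T24 and T24R2 (5 each) were read from 10 tables of raw counts deposited by the authors. Per the labels, the study's methods and the file headers, the authors aligned reads with STAR 2.7.0 to hg38, kept uniquely mapped reads without duplicates (SAMtools 1.10) and counted fragments over exons of GENCODE release 39 with featureCounts 2.0.1 and strand setting 1. By default such counting drops fragments that overlap several genes on the strand read, which lowers genes with shared exons. The kit is not described as strand-specific. In 512 genes lying at least 90% under a well-counted gene on the other strand, count density was a median of 1.51 times that gene's, so a gene and its antisense partner could not be told apart with certainty.

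Counts were tested with edgeR 4.0.16 (quasi-likelihood, R 4.3.3): filterByExpr left 16181 genes, TMM scaling was used, and calls needed a Benjamini-Hochberg adjusted p under 0.05 and a log2 fold change beyond 0.5 in size, as in the study. CPM and FPKM are TMM-scaled. Overlaps came from bedtools 2.31.1 and exact intervals from SciPy 1.17.1. Exact permutation tests of single genes cannot go below p = 0.00794 with 5 libraries per line, so edgeR's p is given. On simulated counts for the T24R2 against T24 comparison (15269 genes), 176 of 200 changed genes and 5 unchanged ones were called. Both simulated lines were drawn from T24 levels with only these 200 genes changed, whereas 51.4% of tested genes were called in the data. The simulation therefore does not check scaling or false calls where so many genes differ. Alternatives used limma 3.58.1 and DESeq2 1.42.0. Gene symbols were joined by Ensembl identifier. Each library held 9257843 to 10840954 counted fragments. Intervals cover counting error only. Depth limits genes under about 10 counts per library, which the filter left out, and 3 counts per library were taken as the floor.

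The members, gene lists and rules were chosen with earlier results of these data known. Of the 39 HOX genes 38 are accounted for, with values for every tested member, every tested noncoding and cofactor gene, the called regulators, EVX1, EVX2 and the nearest 2 tested genes at each cluster end. Some items are not reported here, and counts and sums over HOX genes, cofactors and leukocyte markers are over those reported. EZH2, EED, SUZ12 and the CDX genes were named after their values were seen.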

Additional observations from a re-analysis of the deposited data

Results flagged for a closer look

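In 4 of 62 sets of 5 libraries (each tested HOX gene in each line) the highest or lowest library lay apart from the other 4 by Dixon's 95% criterion, where chance gives about 1 in 20, or 3.1 sets. HOXB5 was at 7.87 CPM in T24R2 replicate 3, with the others at 5.51 to 5.97 CPM. HOXB2 was at 18.4 CPM in T24R2 replicate 5, with the others at 26.1 to 28.9 CPM. HOXD10 was at 0.184 CPM in T24R2 replicate 1, with the others at 0.59 to 0.672 CPM. HOXD3 was at 7.43 CPM in T24 replicate 3, with the others at 9.61 to 10.1 CPM. The calls of HOXB5, HOXD10 and HOXD3 held with any single library left out.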

How the results depend on the processing

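Over single HOX genes, 526 alternative values kept the direction and side of the threshold, 11 newly passed, 1 no longer passed and 8 changed sign. With library-size scaling the median of all genes moved from 0.01 to 0.18 and the calls over all genes from 4027 higher and 4282 lower to 5206 and 3431, while HOX calls were 11 higher and 14 lower and HOXB2 went to 0.04. Restricting the test to genes averaging 100 counts or more (10686 genes, 14 of them HOX) gave 4 higher and 7 lower HOX genes and 4 noncoding genes, since fewer genes were tested. Without genes overlapped from the opposite strand (21 HOX genes tested) 4 noncoding genes and 9 lower HOX genes were called. Leaving out genes overlapped on the same strand (24 HOX genes tested) gave 8 higher and 11 lower HOX genes. The regulator list gave 17 calls with no fold minimum and 1 with a minimum of 1. With single libraries left out, HOXA7 ran from -0.04 to 0.15, HOXA4 from -0.00022 (without T24R2 replicate 4) to 0.44 and HOXB13 from -0.05 (without T24 replicate 2) to 0.08, and HOX calls ran from 9 to 10 higher and 14 to 15 lower. HOXC6 passed under several settings, at 0.50 to 0.69. The cause of these sign changes was not tested. With the replicate number as a block, 10 HOX genes were higher and 14 lower. Same-numbered libraries were correlated at -0.021 to 0.0155, so no pairing by number was seen, and only replicate 2 correlated best with its own number. Such correlations cannot show how the replicates were made. Depth limits the 7 untested members most, and next the 7 that passed the filter in 1 line.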
